A study of Mus musculus with 5 samples.

Results

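The cytosolic ribosomal protein genes encode the proteins of the ribosomes that translate nuclear messages. Members were taken by symbol from the deposited count and TPM tables: Rpl or Rps followed by a number, with an optional a, x, y or l, together with Rplp0, Rplp1, Rplp2 and Rpsa. This gave 85 members of 32793 gene rows. In the GENCODE annotation of mm10, 83 of them have a coding sequence, and Rps4l and Rpl32l are annotated as processed pseudogenes. RNA came from whole mouse kidneys at embryonic day 15.5. NICD_mut kidneys (2 libraries) carried Six2TGC/+, which makes Cre in nephron progenitors, and RosaN1ICD∆PEST, a Rosa26 allele that yields activated Notch1 without its PEST domain once Cre has acted. NICD_wt kidneys (3 libraries) carried RosaN1ICD∆PEST and no Cre. All NICD_mut libraries therefore hold both the driver and activated Notch1, and their effects cannot be told apart. No label ties each library to its own animal; the p-values below therefore rest on the spread of these libraries alone, and that spread may be technical.

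A cytosolic ribosome has a small 40S subunit, which reads the message, and a large 60S subunit, which joins amino acids and releases the chain through an exit tunnel. Most of the proteins are present once in each ribosome, and the genes that encode them lie scattered over the genome, with many processed pseudogene copies elsewhere in it. Their messages typically start with a run of pyrimidines, the 5′ TOP motif, through which translation responds to mTOR signalling.

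Libraries held 17361823 to 21356447 estimated counts. Notch1 measured 288 and 324 CPM (estimated counts relative to the TMM-scaled total of a library) in NICD_mut and 127, 142 and 120 CPM in NICD_wt. Six2, which marks nephron progenitors, measured 0.328 and 0.296 CPM against 134, 141 and 139 CPM. The edgeR quasi-likelihood test covered 15885 genes, and 47.7% were called at an adjusted p of 0.05, 24.8% lower and 23% higher in NICD_mut. Skeletal muscle genes made up 0.311% of the counts of NICD_mut 1, 0.013% of NICD_wt 1 and at most 0.00131% of the other libraries.

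Ribosomal protein genes were lower in NICD_mut almost throughout. Of 82 tested members 74 fell, none rose and 8 did not pass the edgeR test, where 24.8% of all tested genes fell. No member was higher at an unadjusted p under 0.05 either, and DESeq2's Wald test called 77 members lower and none higher, where it called 21.3% of its tested genes lower. The median log2 fold change, NICD_mut minus NICD_wt, was -0.54 for the members, a difference of -31.4%, and 0.013 for all tested genes. The member values from the lower to the upper quartile ran from -0.60 to -0.47, against -0.33 to 0.45 for all tested genes. A log2 change between -0.7 and -0.4 was found for 72 of the 82 members (87.8%) and for 11.7% of all tested genes, a window set after the values were seen. The 2 groups did not overlap, with NICD_mut lower, for 76 of 82 members on CPM, where this held for 34.2% of all tested genes, and for 78 of 82 on TPM, where it held for 26.9%. No member lay apart with NICD_mut higher, as 32.9% of tested genes did. Within a group the members varied little: the median SD of log2 CPM among NICD_wt libraries was 0.08, and the median difference between the NICD_mut libraries was 0.068.

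The members together took 4.15% and 4.28% of the counts in NICD_mut and 6.31, 5.85 and 6.27% in NICD_wt. TPM is also divided by a gene length, which can differ between libraries. On TPM the members took 15.8 and 16.8% of the total in NICD_mut and 21.5, 21.7 and 21.8% in NICD_wt. Both NICD_mut libraries lay below every NICD_wt library on either scale. NICD_mut held on average 0.686 of the NICD_wt share on counts and 0.752 on TPM. Red cell genes moved the other way, at 1.02 and 1.13% of counts in NICD_mut against 0.579, 0.517 and 0.450%. With the red cell and skeletal muscle lists taken out of the total, the member shares were 4.21 and 4.33% against 6.35, 5.88 and 6.30%. These lists hold few of the counts, so taking them out could change the shares only slightly. It also leaves the other RNA of red and muscle cells in the total, so the part of these cells was not tested. In bulk RNA, fewer cells of a type and less RNA per cell cannot be told apart.

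**Figure D1:**
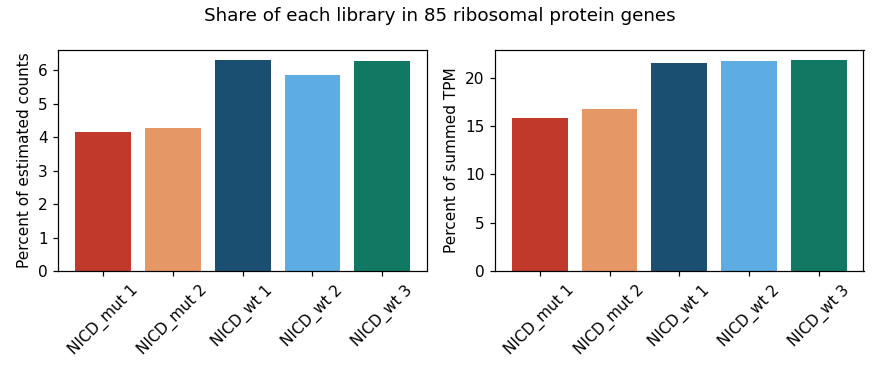
Share of each library taken by the 85 ribosomal protein genes, as percent of estimated counts (left) and percent of summed TPM (right), with 1 bar per library. The NICD_mut bars stand at 4.15 and 4.28% of counts, below the lowest NICD_wt bar at 5.85%, and the same order holds on TPM.

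**Figure D2:**
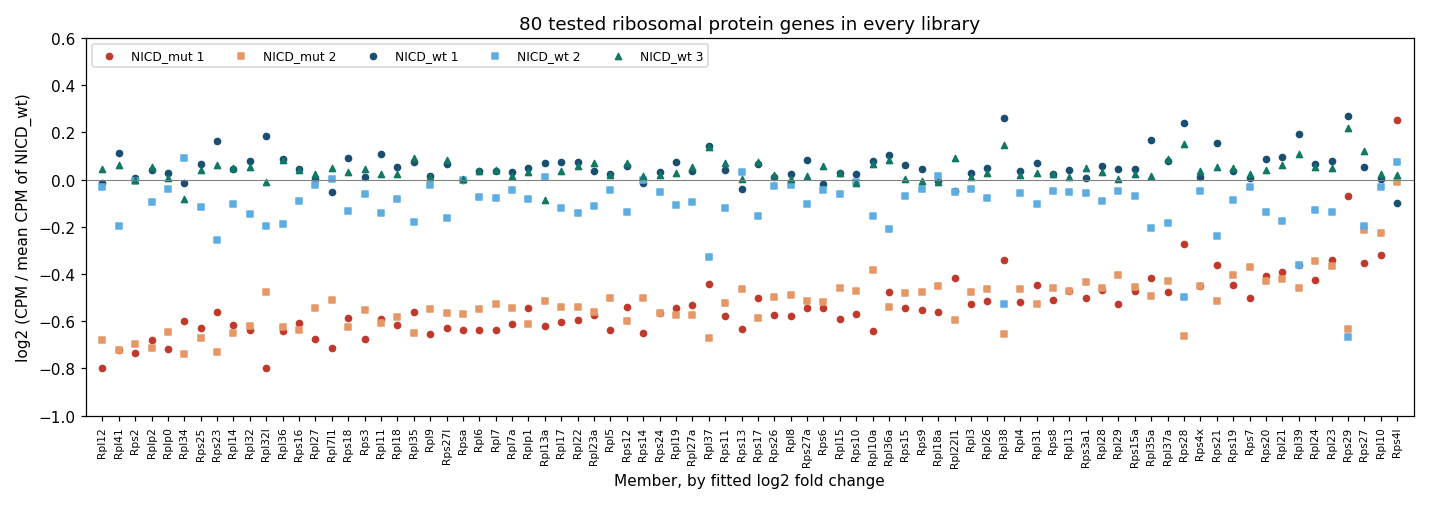
CPM of 80 of the 82 tested members in every library, as log2 of the ratio to the NICD_wt mean, ordered by the fitted log2 fold change; Rpl30 is left out because its values span a far wider range, and 1 other member is not shown. Circles and squares in red and orange are NICD_mut libraries and the other symbols NICD_wt libraries. Most members form a narrow band near -0.5, while NICD_wt 2 drops into that band for Rps29, Rpl38 and Rps28.

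The head of the 40S subunit holds the proteins around the path of the message. Of its 14 tested members 12 fell and 2, Rps28 and Rps29, did not pass, with a median log2 change of -0.54. Rps3, at the site where messages enter the ribosome, measured 724 and 787 CPM against 1165, 1107 and 1192 CPM. Its log2 change was -0.61 (SE 0.06, edgeR adjusted p = 5.17e-05), and its groups did not overlap. Rps19, the gene most often mutated in Diamond-Blackfan anaemia, fell by 0.43 on the log2 scale (SE 0.06, edgeR adjusted p = 0.000414).

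The body and platform of the 40S subunit had 17 tested members, of which 16 fell and Rps27 did not pass, with a median log2 change of -0.53. Rps2, at the entry side of the message channel, measured 1054 and 1082 CPM in NICD_mut and 1763, 1747 and 1754 CPM in NICD_wt. Libraries of 1 group differed by little beside the gap between the groups. Rps2 had the smallest adjusted p of any member, with a log2 change of -0.72 (SE 0.04, edgeR adjusted p = 5.74e-06). Rpsa, which sits on the back of the subunit and is also known as a laminin receptor, measured 1224 and 1282 CPM against 1901, 1903 and 1910 CPM, a log2 change of -0.60 (SE 0.04, edgeR adjusted p = 1.51e-05). Rps26, which contacts the message near its exit, measured 526 and 555 CPM against 789, 768 and 794 CPM, and fell by 0.54 on the log2 scale. Rps6, the classic target of the S6 kinases, fell by 0.53.

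The P stalk of the 60S subunit recruits the elongation factors. It held some of the largest falls: all 4 tested genes passed, with a median log2 change of -0.69. Rpl12, which anchors the stalk base, measured 461 and 500 CPM in NICD_mut and 793, 782 and 826 CPM in NICD_wt. The groups were far apart, and its fall of 0.74 on the log2 scale (SE 0.06, edgeR adjusted p = 1.96e-05) was the largest of the 74. Rplp0, the stalk protein that carries the P1 and P2 dimers, measured 1468 and 1542 CPM against 2462, 2348 and 2426 CPM, a log2 change of -0.68 (SE 0.05, edgeR adjusted p = 1.03e-05). Rplp2 measured 345 and 337 CPM against 568, 517 and 573 CPM, and fell by 0.70 on the log2 scale. Rplp1 measured 562 and 537 CPM against 847, 774 and 837 CPM and had the smallest fall of the 4, at 0.58.

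Rpl5 and Rpl11 bind the 5S RNA, and outside the ribosome the same particle holds the p53 regulator Mdm2. Rpl5 measured 720 and 791 CPM in NICD_mut and 1139, 1088 and 1135 CPM in NICD_wt, and fell by 0.57 on the log2 scale (SE 0.06, edgeR adjusted p = 6.83e-05). Rpl11 measured 503 and 497 CPM against 817, 686 and 769 CPM, a log2 change of -0.60 (SE 0.07, edgeR adjusted p = 0.000239). Neither gene overlapped between the groups. Mdm2 itself did not pass, at a log2 change of -0.19.

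Proteins that line or surround the exit tunnel had 8 tested members. Of these 7 fell and Rpl39 did not pass, with a median log2 change of -0.53. Rpl4, which reaches into the tunnel wall, measured 1280 and 1328 CPM in NICD_mut and 1880, 1763 and 1856 CPM in NICD_wt, a log2 change of -0.49 (SE 0.05, edgeR adjusted p = 6.81e-05). Rpl23a, a docking site for factors that meet the new chain, measured 634 and 640 CPM against 968, 872 and 990 CPM and fell by 0.57 on the log2 scale. For both genes every NICD_mut value lay below every NICD_wt value.

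The remaining 32 core proteins of the 60S subunit had a median log2 change of -0.53. Of these 29 fell, and Rpl30, Rpl37 and Rpl38 did not pass. Rpl41, which encodes a very short basic protein and had the highest mean TPM of the members, measured 591 and 590 CPM in NICD_mut and 1053, 851 and 1018 CPM in NICD_wt. It fell by 0.72 on the log2 scale (SE 0.09, edgeR adjusted p = 0.000601). Rpl7a measured 664 and 696 CPM against 1038, 984 and 1025 CPM, with a log2 change of -0.58. Rpl9, part of the 60S surface near the stalk base, measured 488 and 524 CPM against 774, 755 and 772 CPM, a log2 change of -0.60. The smallest fall to pass was that of Rpl10, a late-joining protein of the 60S core, which measured 829 and 884 CPM against 1036, 1012 and 1051 CPM. Its log2 change of -0.27 (SE 0.05, edgeR adjusted p = 0.00207) still came without overlap.

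Several members were listed as paralogs of core proteins, and 4 of these 7 were tested. Rpl7l1, a relative of Rpl7 that acts in assembly of the large subunit, measured 112 and 129 CPM in NICD_mut and 177, 184 and 190 CPM in NICD_wt, and fell by 0.61 on the log2 scale (SE 0.08, edgeR adjusted p = 0.000273). Rps27l measured 48.3 and 50.4 CPM against 78.2, 66.7 and 78.9 CPM, a log2 change of -0.60 (SE 0.09, edgeR adjusted p = 0.000599). Rpl22l1, a paralog of Rpl22, measured 75.8 and 67.0 CPM against 98.0, 97.7 and 108 CPM, a log2 change of -0.50. These 3 thus fell about as far as the core proteins did. Rps4l, which is annotated as a processed pseudogene and has no coding sequence, did not. It measured 56.5 and 47.2 CPM against 44.4, 50 and 48.1 CPM, with a log2 change of 0.13 (SE 0.10, edgeR adjusted p = 0.315). NICD_mut 1 was its highest library and NICD_mut 2 lay within the NICD_wt range.

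The 3 members that were too low to test are known for other tissues. Rpl3l, the striated muscle form of Rpl3, had 7 and 0 counts in NICD_mut and 1, 1 and 2 counts in NICD_wt, and its 7 counts came from the library with the most muscle RNA. Rpl10l and Rpl39l, known from the testis, had 0 counts in every library. With 3 counts as the limit that a count of 0 allows, levels up to 0.14 to 0.173 CPM per library were not detectable.

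Rpl30, a core protein of the 60S subunit, did not follow the groups. It measured 7.97 and 283 CPM in NICD_mut and 12, 172 and 11.5 CPM in NICD_wt. The libraries numbered 2 were high in both groups and the other 3 were low. Its log2 change of 1.15 had an SE of 2.16 (edgeR adjusted p = 0.71). A search of the mm10 transcripts, added after the values had been seen, found that the processed pseudogene Gm12191 covers all of its 345 coding bases with 1 difference. Reads from nearly all of the coding sequence therefore match both.

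Gm12191 had the opposite pattern across the libraries. Rpl30 had 170 and 5732 counts in NICD_mut and 239, 3675 and 200 in NICD_wt, while Gm12191 had 5369 and 33 counts in NICD_mut and 7063, 3145 and 6084 in NICD_wt. Of the counts of the pair, Rpl30 held 3.07 and 99.4% in NICD_mut and 3.27, 53.9 and 3.18% in NICD_wt. The pair summed to 260 and 284 CPM in NICD_mut and 368, 319 and 362 CPM in NICD_wt, and these sums did not overlap between the groups. The summed counts fell by 0.36 on the log2 scale (SE 0.08, edgeR adjusted p = 0.00426). The sum of the pair thus followed the groups, while its division differed between libraries; the division was not traced to reads, and what set it was not tested.

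Rpl34, another 60S protein, shares its sequence with the copy Rpl34-ps1 in the same way, with T132C and C318G as the 2 differences in 351 coding bases, counted from the A of the start codon. The window over coding positions 87 to 176 holds the first of them, in capitals, and is shown, from the GENCODE transcripts of mm10, for how little tells a gene from its copy.
Rpl34: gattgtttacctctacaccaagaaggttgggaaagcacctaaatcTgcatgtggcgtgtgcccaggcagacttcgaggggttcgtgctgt
Rpl34-ps1: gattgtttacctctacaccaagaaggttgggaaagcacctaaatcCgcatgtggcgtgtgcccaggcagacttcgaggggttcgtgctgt

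Here the division was steady, since Rpl34 held 5.57 to 7.44% of the pair's counts in every library. Rpl34 alone measured 19.4 and 17.6 CPM in NICD_mut and 29.1, 31.3 and 27.7 CPM in NICD_wt, a log2 change of -0.67 (SE 0.11, edgeR adjusted p = 0.000941). The pair summed to 309 and 315 CPM against 456, 420 and 451 CPM, a log2 change of -0.50 (SE 0.06, edgeR adjusted p = 0.000164). The level printed for Rpl34 alone is therefore a small part of the level of the pair. In all, 557 annotated genes, pseudogenes included, are near-identical copies of 74 members (at least 95% identity over at least 80% of the coding bases). Only genes spanning at most 2000 bases were taken, each counted for its best-matching member alone. Of these, 15 copies of 14 members have a row in the count table. For the other 12 of these 14, the member held at least 95.8% of the counts in every library.

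**Figure D3:**
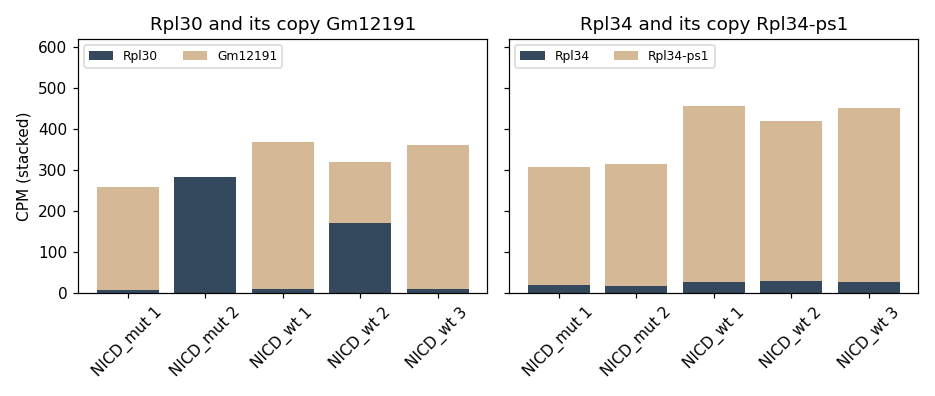
CPM of Rpl30 with its copy Gm12191 (left) and of Rpl34 with its copy Rpl34-ps1 (right) in each library, stacked, so that the bar height is the sum of the pair. The division within the Rpl30 pair runs from 3.07 to 99.4% between libraries, while both sums are lower in the NICD_mut libraries than in any NICD_wt library.

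Rps29, a small zinc-binding protein of the 40S head, measured 251 and 170 CPM in NICD_mut and 318, 166 and 307 CPM in NICD_wt. The libraries numbered 2 were the lowest in both groups, and NICD_wt 2 fell below NICD_mut 1. Its log2 change of -0.32 (SE 0.42, edgeR adjusted p = 0.584) did not pass. The same order held for Rps28 and Rpl38, each a very small protein, while for Rpl39 NICD_wt 2 and NICD_mut 1 differed by less than the rounding of the printed values. Rps28 measured 215 and 164 CPM against 307, 184 and 288 CPM (log2 change -0.45, SE 0.30). Rpl38, a 60S protein known for its part in the translation of Hox messages, measured 139 and 112 CPM against 211, 122 and 195 CPM (log2 change -0.49, SE 0.31). Rpl39, at the mouth of the exit tunnel, measured 204 and 191 CPM against 300, 204 and 283 CPM (log2 change -0.41, SE 0.19). These 4 were 4.88% of the tested members, counting Rpl39, and both libraries numbered 2 were likewise the lowest of all for 4.07% of all tested genes.

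Most members that did not pass have short coding sequences. Of 10 tested members with under 300 coding bases 4 fell and 6 did not pass, while 69 of the 70 longer ones fell; the limit was set after the values were seen. Besides the 4 above, the short members that did not pass were Rpl37 (236 and 201 CPM against 354, 255 and 352 CPM, log2 change -0.55, edgeR adjusted p = 0.0612) and Rps27 (266 and 293 CPM against 353, 297 and 370 CPM, log2 change -0.28, edgeR adjusted p = 0.0503). Neither of them overlapped between the groups on CPM, and both, with Rpl39, passed DESeq2's Wald test (adjusted p = 0.000549 for Rpl37, 0.0211 for Rps27 and 0.017 for Rpl39). Rpl41, Rps27l, Rps21 and Rpl37a were the short members that fell.

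NICD_wt 2 differed from the mean of NICD_wt 1 and 3 by a median of -0.41 on the log2 CPM scale over the 10 short members, with values from -0.91 to -0.24, and by -0.11 over 69 longer ones. Across these 79 members, with Rpl30 left out, that difference rose with log2 coding length at a Pearson r of 0.67 and a Spearman rho of 0.63. The difference between NICD_mut 2 and NICD_mut 1 gave 0.58 and 0.56. Members of 1 library share its preparation and depth and are not independent, so these values are descriptions. On TPM the same correlations were 0.19 and 0.07 for NICD_wt 2 and 0.05 and 0.04 for NICD_mut 2. The group difference correlated less with length, at -0.21 and -0.17 on CPM. What differed in the libraries numbered 2 was not tested.

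**Figure D4:**
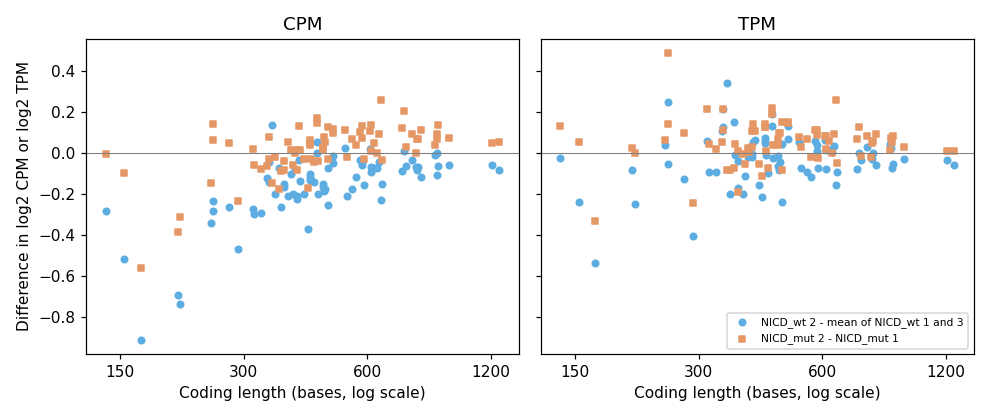
Difference between libraries of the same group for 79 members against coding length in bases on a log axis, as log2 CPM (left) and log2 TPM (right). Circles are NICD_wt 2 minus the mean of NICD_wt 1 and 3, and squares are NICD_mut 2 minus NICD_mut 1. On CPM the short members lie lowest, with values down to -0.91; on TPM the slope is nearly gone.

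Set library by library with the same number, the members were lower in NICD_mut each time. NICD_mut 1 differed from NICD_wt 1 by a median of -0.60 on the log2 CPM scale, with 81 of 82 members below 0. NICD_mut 2 differed from NICD_wt 2 by -0.44, with 80 of 82 below 0, and Rpl30 stood highest there at 0.72. Over all tested genes the medians were -0.0 and 0.01, so those genes lay about evenly on either side of 0. The numbers name libraries and do not show pairing. For Rps29 the differences in the first and second comparison were -0.34 and 0.04, for Rpl38 -0.60 and -0.12, and for Rps28 -0.52 and -0.16. These 3 were thus lower in the first comparison and nearer to 0 in the second. On TPM, with limma on log2(TPM + 1), 77 members were lower and none higher, where 18.7% of 14884 tested genes were lower and 28.9% higher. Rps28 (log2 change -0.35, limma adjusted p = 0.00136), Rpl38 (-0.36, 0.0149) and Rpl39 (-0.29, 0.0294) were among the 77, while Rpl37, Rps27 and Rps29 were not, with limma adjusted p-values of 0.0734, 0.426 and 0.511. The median TPM change was -0.43 for the members and 0.106 for all tested genes, so relative to all genes the members were lower by about as much as on counts, at -0.54.

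By the rule set for members that follow 1 library, in which the gap from that library to the nearest other exceeds the range of the other 4, no member qualified on CPM, against 21.6% of all tested genes. For Rpl30 and Rps29 the libraries numbered 2 stood apart together. For Rps28 and Rpl38 they were the lowest, but NICD_mut 1 lay nearer to them than to NICD_wt 1 and NICD_wt 3. None of the 4 met a rule written for 1 library. On log2(TPM + 1) the rule took 1 member, Rps4l in NICD_mut 1, at 140 TPM against 98.9 to 116 TPM in the other libraries, where it took 21.4% of all tested genes.

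Members fell on every chromosome that holds tested ones. They lie on 19 chromosomes, with the most, 14, on chromosome 7, where all 14 fell. Introns of many of these genes carry small non-coding RNAs, often small nucleolar RNAs, which guide the modification of ribosomal RNA. Of 32 tested members that GENCODE marks as hosts of a non-coding RNA 29 fell, with a median log2 change of -0.55, and of 50 others 45 fell, with a median of -0.53. Among 17 genes of the table that are mutated in Diamond-Blackfan anaemia, a failure of red cell production, 14 fell and Rps27, Rps28 and Rps29 did not pass, with a median of -0.52.

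Sequence at the start site was taken from RefSeq promoters on GRCm38.p6, which held 64 of the 85 members. An unbroken run of at least 6 pyrimidines (C or T) over the annotated first base was sought. It was present in 20 of the 64 (31.2%) and in 8.48% of 27025 genes of that table. Bases before the first base counted too, so such a run need not be a TOP motif, which starts the message. The 64 include the pseudogene Rpl32l, which has a run, and the untested Rpl10l, Rpl39l and Rpl3l, which have none. Annotated first bases often miss the true start, so a missing run says only that it is not at that base. The letters CCGGAA or TTCCGG, the core bound by ETS-type factors on either strand, occurred within 300 bases in 35 members (54.7%) and in 16.7% of all genes. The windows below run from 10 bases before to 20 bases from the annotated first base on, with the run in capitals. The Rpl7a run is 21 bases long and is cut at the left edge of its window. They show 2 members that fell, Rplp2 at chr7:141447641-141447670 (plus strand) and Rpl7a at chr2:26910797-26910826 (plus strand), and 2 that did not pass, Rpl38 at chr11:114668570-114668599 (plus strand) and Rps27 at chr3:90213629-90213658 (minus strand).
Rplp2: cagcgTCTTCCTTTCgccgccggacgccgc
Rpl7a: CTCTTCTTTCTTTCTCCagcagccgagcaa
Rpl38: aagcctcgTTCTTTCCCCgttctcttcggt
Rps27: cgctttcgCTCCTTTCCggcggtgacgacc
The run is thus found in members that passed and in members that did not.

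Genes that work with the ribosome were lower as well. Among ribosomal proteins outside the symbol rule, Rack1, Rpl36al and Fau fell, with log2 changes of -0.55, -0.59 and -0.44. Of 40 ribosome assembly genes 38 fell and 2 did not pass, with a median of -0.64. Dkc1, which makes pseudouridine in ribosomal RNA, measured 50.7 and 51.9 CPM in NICD_mut and 108, 103 and 117 CPM in NICD_wt, a log2 change of -1.10 (SE 0.07, edgeR adjusted p = 9.93e-06). Fbl, the methylase of nucleolar particles, measured 80.5 and 85 CPM against 160, 153 and 166 CPM and fell by 0.95 on the log2 scale. The assembly genes Wdr43 and Rrs1 fell by 0.83 and 1. The members that did not pass were Sbds and Eif6, which act late on the 60S subunit, with log2 changes of -0.04 and -0.01.

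RNA polymerase I, which makes the large ribosomal RNA precursor, and its factors had 15 tested genes, of which 11 fell and 4 did not pass, with a median log2 change of -0.47. Tcof1 and Polr1c fell by 0.51 and 0.64 on the log2 scale. Among 16 translation genes known for TOP messages 12 fell and 4 did not pass, with a median of -0.40. Eef1a1, the elongation factor that delivers transfer RNA, measured 8015 and 8682 CPM in NICD_mut and 10932, 10743 and 11145 CPM in NICD_wt, a log2 change of -0.39 (SE 0.04, edgeR adjusted p = 0.000135). Npm1, a nucleolar chaperone, fell by 0.93. Eef2, the factor that moves the ribosome along the message, did not pass at -0.05 (SE 0.06), and its groups overlapped.

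Mitochondrial ribosomes are built from another set of nuclear genes. Of 78 such genes 65 fell and 13 did not pass, with a median log2 change of -0.42, and they took 0.245 and 0.255% of counts in NICD_mut and 0.336, 0.327 and 0.339% in NICD_wt. Mrpl12, which also binds the mitochondrial RNA polymerase, measured 68.3 and 68.4 CPM against 113, 107 and 117 CPM, and fell by 0.71 on the log2 scale. Whether the mitochondrial and cytosolic sets differ in size of change was not tested.

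**Figure D5:**
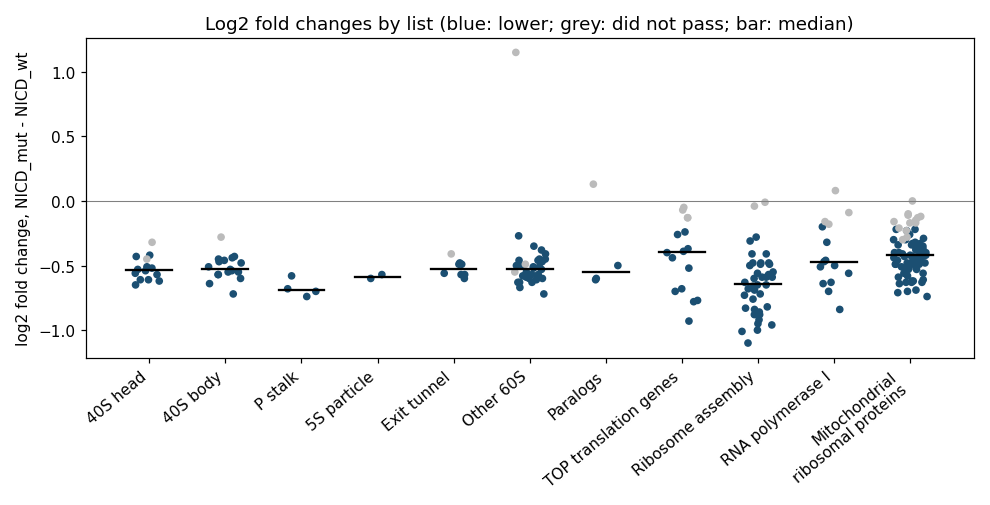
Log2 fold change of each tested gene, NICD_mut minus NICD_wt, for the structural groups of the cytosolic ribosome, the paralogs and 4 related lists; each point is a gene, blue where it was lower at an adjusted p of 0.05, grey where it did not pass, and the bar is the median. Almost all points lie below 0, with medians from -0.69 for the P stalk to -0.40 for the TOP translation genes. Rpl30 at 1.15 lies highest, and Rps4l at 0.13 and Taf1c at 0.08 are the other points above 0.

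Regulators of growth did not move as a group. Of 16 tested 4 were lower, 2 higher and 10 did not pass, with a median log2 change of -0.10. Among all tested genes 24.8% were lower and 23% higher. Mycn, a relative of Myc, measured 19.4 and 31.1 CPM in NICD_mut and 80.9, 80.2 and 80 CPM in NICD_wt, a log2 change of -1.67 (SE 0.21, edgeR adjusted p = 0.00199). Myc measured 46.2 and 44.7 CPM against 79.7, 73.3 and 80.7 CPM, a log2 change of -0.78 (SE 0.07, edgeR adjusted p = 5.23e-05). Mtor, the kinase that controls translation of TOP messages, and Tsc2, its inhibitor, were the higher ones, with log2 changes of 0.35 and 0.33. Rheb and Rps6kb1 were the other lower ones, with log2 changes of -0.25 and -0.35. Only transcripts were measured, so nothing here bears on the activity of these proteins.

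Markers of several cell types and of division also differed between the groups. Of 10 kidney markers 4 rose (Wt1, Nphs1, Pax8 and Foxd1, with log2 changes of 1.34, 0.95, 0.80 and 0.38), 4 fell, among them Six2, Slc12a1 and Pax2, and 2 did not pass, with a median of 0.11. All 8 nephron progenitor markers had negative log2 changes and 7 of them fell, with a median of -2.69, and among 9 proliferation genes 8 fell and Mki67 did not pass, with a median of -0.83. Of 6 red cell genes 4 rose and 2 did not pass, with a median of 1.01, and the globins took 5.72 and 6.66% of TPM in NICD_mut against 2.95, 2.90 and 2.34%. With the globins left out of the TPM total, the members took 16.7 and 18% in NICD_mut and 22.2, 22.4 and 22.3% in NICD_wt. The part of nephron progenitors and of dividing cells in the lower member levels was not tested.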

How the data were processed

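Bulk RNA sequencing of 5 libraries was analysed from gene tables. The authors deposited estimated counts, held as whole numbers, and TPM values; per the submitters' processing notes they used RSEM and Bowtie2 with mm10, and their versions, the annotation and strandedness were not given in the sources used here. Reads are divided among near-identical sequences by estimation in RSEM. Counts were scaled with TMM, filtered with filterByExpr (minimum count 10, minimum total 15) and tested with the edgeR 4.0.16 quasi-likelihood test (robust, no covariates) over 15885 genes, p-values being adjusted by Benjamini-Hochberg and called at 0.05. CPM is given per library and SE is from the fit. Deposited TPM was tested with limma 3.58.1 on log2(TPM + 1) over genes with at least 1 TPM in 2 libraries. Copies were sought with BLAST 2.17.0 among GENCODE transcripts of genes spanning at most 2000 bases. The tests were also run on simulated counts with the same spread for every gene and few changed genes. That setting is unlike these data, so it cannot show how the tests do on genes with uneven library values. The members and lists were chosen with earlier results of these data known. Members named were Rpl30, Rps29, any that follow 1 library, the 6 largest changes either way, the 6 with the highest mean TPM, all paralogs and up to 2 per structural list with the smallest adjusted p, and from the other lists up to 4 genes; the others were chosen after their values were seen, and some items the rule takes are not reported here. Alternatives were other scalings, filters and tools, TPM fits, a replicate block, copies added, and libraries left out.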

Additional observations from a re-analysis of the deposited data

How the results depend on the processing

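The count of members lower in NICD_mut was 71 to 79 with each library left out in turn, with medians of -0.58 to -0.53, and 74 to 77 under the other scalings, filters, tools and copy sums, none of which gave a higher member. The TPM fits (log2(TPM + 1), log2(TPM + 0.1) and log2(TPM + 1) without a filter) gave a median of -0.43, and the ratio of shares was 0.752 on TPM. On log2(TPM + 1) 1 member followed 1 library. In the TPM fits 60.4 to 61.8% of called genes were higher, against 48.1% on counts. Without both libraries numbered 2, an alternative added after seeing the data, 81 members were lower and 1, Rps4l, higher (log2 change 0.28), but its lone NICD_mut library is assumed to vary like the others. Rpl30 reversed to -0.36 with its near-identical copy added, to -3.06 without NICD_mut 2 (its range with 1 library left out was -3.06 to 3.63) and to -0.57 without both libraries numbered 2. Rps4l was -0.01 without NICD_mut 1 and up to 0.24 with another library left out. Leaving out NICD_wt 2 brought Rps27 (-0.37), Rps28 (-0.65), Rpl37 (-0.69), Rpl38 (-0.70) and Rpl39 (-0.56) past the threshold, while Rps29 (-0.57, edgeR adjusted p = 0.12) still did not pass. Of the growth regulators 2 instead of 4 were lower in the TPM fits and without NICD_wt 3.

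With the replicate number as a block, 73 members were lower, with a median of -0.53, Rpl37 passed (edgeR adjusted p = 0.0113), and Rpl10 (0.0577) and Rpl32l (0.0594) no longer did. Deviations from the group means, over all tested genes, correlated by 0.327 and 0.156 within the number pairs. The deviations of the 2 NICD_mut libraries mirror each other, so the crossed pairs were bound to give -0.327 and -0.156. With 2 pairs the numbers name libraries and do not show pairing. Leaving mitochondrial genes out of the total was not run because the table lists none under their usual symbols. With 2 NICD_mut libraries, members with uneven library values, such as Rps29 with an SE of 0.42, have wide intervals.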
